A study of Mus musculus with 6 samples.

Results

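The genes described here are the immediate early genes Egr1, Egr2, Fos, Fosb, Jun, Junb, Ier2 and Atf3 together with Areg, 9 of the 17144 genes measured in the series. They were found in the deposited table by their identifiers, and each of the 9 had a row. They were chosen by gene family and by their values on these same arrays, because 1 array of neural progenitor cells stood apart for Egr1, Egr2 and Areg, so their levels and the differences between arrays are given as a description, without a test. Affymetrix mouse expression arrays were hybridized with RNA of wild type embryonic stem cells (ESCs) of the blastocyst derived line V6.5, of 129SvJae/C57B6 F1 background, and of wild type neural precursor or progenitor cells (NPCs) derived from that line in vitro, with 3 biological replicates of each. The ESCs grew in medium with fetal bovine serum and the cytokine LIF, and the NPCs on polyornithine and laminin in N3 medium with bFGF and EGF, so cell type and medium cannot be told apart. Both cell types go back to a single line, and nothing says that the replicates came from separate derivations, so p-values measure only the spread between these samples. NPC replicates 1, 2 and 3 are the arrays NP106, NP107 and NP39. The authors deposited values of robust multi-array average (RMA), which are on the log2 scale, so that a difference of 1 is 2-fold. They have no unit of molecules, and levels of different genes are not compared.

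Immediate early genes are transcribed within minutes of a stimulus such as serum, a growth factor or cell stress, from factors already present in the cell. The classical route runs from a receptor through RAS and the kinase ERK to ELK factors, which act with serum response factor on CArG boxes, while CREB family factors act on cyclic AMP response elements. Egr1 and Egr2 encode zinc finger transcription factors, the FOS and JUN proteins pair as the transcription factor AP-1, ATF3 is a stress-induced factor of the ATF/CREB family, and IER2 is a small protein of the immediate early response. Areg encodes amphiregulin, a ligand of the EGF receptor, the receptor through which the EGF of the NPC medium acts. EGR2, also known as KROX20, is known for its part in hindbrain segmentation and in myelination by Schwann cells.

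Promoter windows of 300 bases, 250 before and 50 after the annotated start of transcription, were at hand from RefSeq (assembly GRCm38.p6) for 7 of the 9 genes. Egr1 and Ier2 had no entry. Of these windows 3 are shown, those of Egr2 and Areg, which were high on NPC replicate 3, and that of Fos, whose values overlapped between the cell types. Capitals mark matches to the motifs searched on both strands. In the Egr2 window, at chr10:67537619-67537918 on the plus strand, they are a CArG box that begins 72 bases before the start and the letters TGACG, the core of the cyclic AMP response element, at 111 bases before it and, on the other strand, at 55. In the Areg window, at chr5:91139349-91139648 on the plus strand, they are a full cyclic AMP response element (TGACGTCA) 61 bases before the start, which contains the core on each strand, a further core at 115 and a TATA box (TATAAA) at 31. In the Fos window, at chr12:85473640-85473939 on the plus strand, they are the core at 129 and at 66 bases before the start and a TATA box at 33.
Egr2: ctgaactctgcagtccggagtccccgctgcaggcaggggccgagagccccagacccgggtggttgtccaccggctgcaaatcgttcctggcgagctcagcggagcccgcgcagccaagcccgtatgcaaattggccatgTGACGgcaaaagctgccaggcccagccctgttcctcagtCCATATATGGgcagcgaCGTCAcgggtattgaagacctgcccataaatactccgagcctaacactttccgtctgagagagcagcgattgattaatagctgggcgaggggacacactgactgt
Areg: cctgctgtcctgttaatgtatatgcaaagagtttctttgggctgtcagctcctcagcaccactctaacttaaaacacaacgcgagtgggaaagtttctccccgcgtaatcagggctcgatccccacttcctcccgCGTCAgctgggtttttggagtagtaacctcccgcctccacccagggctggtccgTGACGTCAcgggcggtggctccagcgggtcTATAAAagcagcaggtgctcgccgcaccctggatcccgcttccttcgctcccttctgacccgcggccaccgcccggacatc
Fos: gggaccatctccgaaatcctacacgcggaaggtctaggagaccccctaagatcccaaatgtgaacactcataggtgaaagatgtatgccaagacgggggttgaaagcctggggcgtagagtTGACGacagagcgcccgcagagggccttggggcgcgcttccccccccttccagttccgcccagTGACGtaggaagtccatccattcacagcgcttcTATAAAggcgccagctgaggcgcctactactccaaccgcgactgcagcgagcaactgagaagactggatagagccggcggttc

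Among all 32851 promoter windows of that table, 1.63% held a CArG box, 1.79% the full element TGACGTCA, 20.8% its core TGACG, 13.6% TATAAA, 5.55% the EGR motif GCGNGGGCG and 7.81% the AP-1 motif TGANTCA. Of the 7 genes with a window, Egr2 had the CArG box and Areg the full element, and Egr2, Fos, Fosb, Junb, Atf3 and Areg had the core. Atf3 was also more than 1 above the other NPC arrays on replicate 3. Its window, not shown, held only the core, 7 bases before the start on the other strand. The window of Egr2 shown is the one of its 5 entries that held the most kinds of these motifs, and the core was added to the search after the windows had been seen. Fosb held the EGR motif 50 bases before its start, no window held TGANTCA, and the Jun window held none of the 6. A match is a string of letters, and a window without one says nothing of sites farther away.

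**Figure D1:**
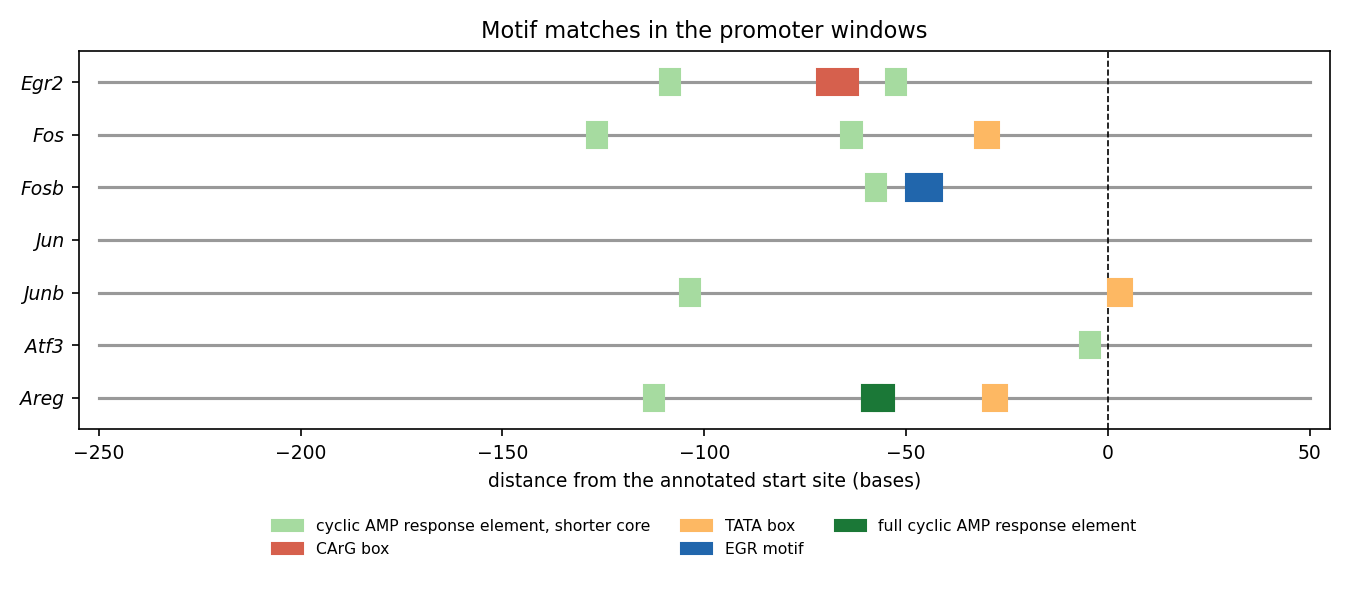
Motif matches in the promoter windows of the 7 genes with an entry. The horizontal axis is the distance in bases from the annotated start (dashed line), each grey line is a window, and each coloured box is a match on either strand. The CArG box of Egr2 and the full cyclic AMP response element of Areg begin 72 and 61 bases before the start.

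By the markers that could be named, 1 of 6 for ESCs and 3 of 5 for NPCs, the arrays matched their labels. Pou5f1, which encodes the pluripotency factor OCT4, read 12.42 to 12.46 in ESCs and 3.61 to 3.83 in NPCs, and Fabp7, a gene of radial glia and neural progenitors, 3.72 to 3.85 in ESCs and 12.76 to 13.53 in NPCs. NPC replicate 3 stood apart. Across genes its r with each of the others of its group was 0.978 to 0.979, against 0.997 between NPC replicates 1 and 2 and 0.996 to 0.998 among the ESC arrays, where genes are not independent replicates. It lay more than 1 above the mean of the other NPC arrays at 2.20% of all genes and more than 1 below it at 1.80%. The differences between the cell types are therefore given with and without that array for the 9 genes and for the related genes named. By limma NPCs were higher than ESCs at 15.4% of genes and lower at 18.7% (adjusted p under 0.05 and a difference over 1.5-fold), or 16.7% and 19.4% without NPC replicate 3. With each array centred on its median the median difference of all genes moved by 0.15 and the calls became 3302 higher and 2642 lower, against 2638 and 3213 in the deposited values. The signs given below for the 9 genes held under that centring and under quantile normalization, except those of Fos and Fosb.

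Both EGR genes were higher in NPCs than in ESCs on every array, and highest on NPC replicate 3. Egr1 (ENSMUSG00000038418_at) read 8.04, 8.11 and 7.87 in ESCs, and 9.10, 8.82 and 11.76 in NPC replicates 1, 2 and 3. The ESC arrays thus lay close together, NPC replicates 1 and 2 a little above them, and replicate 3 far above both. The means were 8.01 ± 0.12 in ESCs and 9.90 ± 1.62 in NPCs (SD, n = 3 arrays), a difference of 1.89 ± 0.94 (standard error) or 3.70-fold. Without NPC replicate 3 the difference was 0.95, or 1.94-fold, so that array carried much of it. On NPC replicate 3 alone Egr1 stood 13.5-fold above the ESC mean and 6.97-fold above the mean of the other NPC arrays.

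Egr2 (ENSMUSG00000037868_at) had a like order at other values, 2.90, 3.24 and 3.06 in ESCs and 4.79, 4.49 and 6.89 in NPC replicates 1, 2 and 3. No NPC array came within 1 of an ESC array, and replicate 3 lay more than 2 above the other NPC arrays. The means of 3.07 ± 0.17 in ESCs and 5.39 ± 1.30 in NPCs (SD, n = 3 arrays) differed by 2.32 ± 0.76 (standard error), or 5.01-fold, and by 1.58, or 2.98-fold, without NPC replicate 3. The ESC values of Egr2 are low on the scale of these arrays, where RMA compresses differences, and no detection calls were used, so they do not set whether the transcript was present.

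Jun differed most between the cell types among the 9 genes. Jun (ENSMUSG00000052684_at), the main DNA-binding partner in AP-1, read 5.27, 5.34 and 4.74 in ESCs and 8.98, 8.87 and 9.47 in NPCs. Replicate 3 lay 0.55 above the mean of the other NPC arrays, so the high NPC level of Jun did not rest on it. The means were 5.12 ± 0.33 and 9.11 ± 0.32 (SD, n = 3 arrays), and the difference of 3.99 ± 0.27 (standard error) is 15.9-fold, or 14.0-fold without NPC replicate 3. By this difference Jun ranked 89th of the 17144 genes from the highest.

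Junb went the other way. Junb (ENSMUSG00000052837_at), a JUN family member that can oppose JUN at AP-1 sites, read 6.55, 6.87 and 6.67 in ESCs and 4.92, 5.21 and 5.80 in NPC replicates 1, 2 and 3. Every NPC array was below every ESC array, with replicate 3 the nearest to the ESC level. The means of 6.70 ± 0.16 and 5.31 ± 0.45 (SD, n = 3 arrays) differed by -1.39 ± 0.28 (standard error), a level 2.62-fold lower in NPCs, and 3.11-fold lower without NPC replicate 3. Jun and Junb, close relatives in sequence family, were thus on opposite sides of their ESC levels in the same NPC arrays.

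Fos stayed near its ESC values, and Fosb read low on all 6 arrays. Fos (ENSMUSG00000021250_at), the FOS protein that pairs with JUN in the early response, read 7.11, 7.32 and 7.09 in ESCs and 7.00, 6.90 and 7.54 in NPCs, so the groups overlapped and replicate 3 was the highest of the 6 arrays. Its means were 7.17 ± 0.13 and 7.15 ± 0.34 (SD, n = 3 arrays), with a difference of -0.027 ± 0.21 (standard error), or -0.22 without NPC replicate 3, and it changed sign under median centring (0.13) and quantile normalization (0.023). Fosb (ENSMUSG00000003545_at), a relative of Fos, read 3.16, 3.22 and 3.40 in ESCs and 3.49, 3.02 and 3.14 in NPCs, with overlapping groups. Its means were 3.26 ± 0.12 and 3.22 ± 0.24 (SD, n = 3 arrays), with a difference of -0.042 ± 0.16 (standard error), -0.0041 without NPC replicate 3 and 0.11 under median centring. The Fosb values lie at the low end of the scale, and no detection calls were used. They therefore do not set whether the transcript was present, nor whether it was unchanged. Of the 9 genes Fosb was the 1 that was not highest among NPC arrays on replicate 3.

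Ier2 combined a lower level in NPC replicates 1 and 2 with a near-ESC level on replicate 3. Ier2 (ENSMUSG00000053560_at) read 9.51, 9.58 and 9.38 in ESCs and 7.55, 7.29 and 9.17 in NPCs. All NPC arrays were below all ESC arrays, but replicate 3 lay only 0.33 below the ESC mean where the other NPC arrays lay 2.08 below it on average. The means of 9.49 ± 0.10 and 8.00 ± 1.02 (SD, n = 3 arrays) differed by -1.49 ± 0.59 (standard error), a level 2.81-fold lower in NPCs, and 4.21-fold lower without NPC replicate 3.

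Atf3 showed a small difference on NPC replicates 1 and 2 and a larger one on replicate 3. Atf3 (ENSMUSG00000026628_at) read 5.43, 5.66 and 5.65 in ESCs and 6.01, 5.75 and 7.37 in NPCs, with every NPC array above every ESC array but replicate 2 by less than 0.1. The means of 5.58 ± 0.13 and 6.37 ± 0.87 (SD, n = 3 arrays) differed by 0.79 ± 0.51 (standard error), or 0.30 without NPC replicate 3. On replicate 3 the gene stood 3.45-fold above the ESC mean.

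Areg was high on a single array. Areg (ENSMUSG00000029378_at) read 3.43, 3.45 and 3.43 in ESCs, 2.88 and 3.23 in NPC replicates 1 and 2, and 7.01 in NPC replicate 3. The first 5 of these values lie at the low end of the scale, where a difference may not reflect a change in RNA, and replicate 3 lay more than 3.5 above each of them. The means of 3.44 ± 0.013 in ESCs and 4.37 ± 2.29 in NPCs (SD, n = 3 arrays) differed by 0.94 ± 1.32 (standard error) with the array and by -0.38 without it, so the sign rested on that array. In RMA values Areg on NPC replicate 3 stood 11.9-fold above the ESC mean and 15.5-fold above the mean of the other NPC arrays. Both ratios are taken against low values without a detection call, so they, and any rank by them, describe the deposited values and do not set the fold in RNA.

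**Figure D2:**
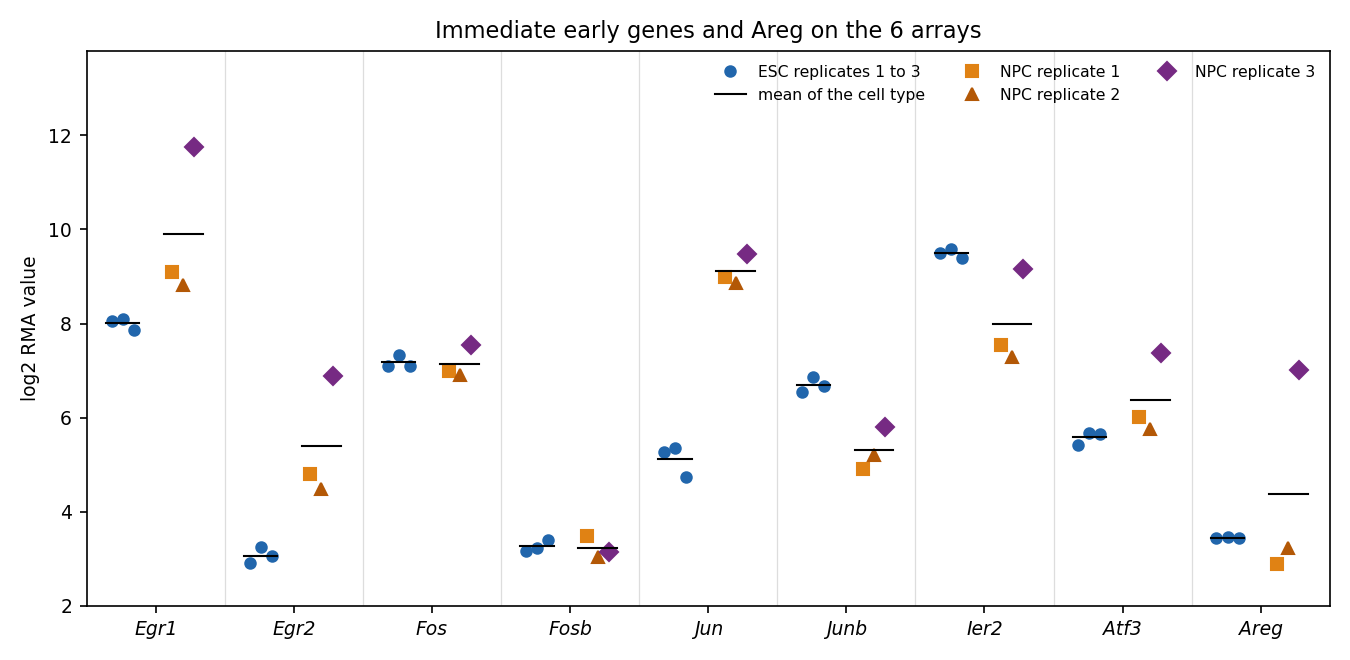
Log2 RMA value (vertical axis) of the 9 genes on each of the 6 arrays. Circles are ESC replicates, squares, triangles and diamonds are NPC replicates 1, 2 and 3, and a line marks the mean of each cell type. NPC replicate 3 is the highest NPC array for 8 of the 9 genes, with Areg at 7.01 against 2.88 and 3.23, while Jun is high on all NPC arrays.

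Side by side, the 9 genes fell into several patterns on the NPC arrays. Egr1, Egr2, Jun and Atf3 had all NPC arrays above all ESC arrays, as did 26.1% of all genes, and Junb and Ier2 had all NPC arrays below, as did 32.6%. Fos, Fosb and Areg overlapped. Since the genes were chosen with these arrays known, no call by limma is given for them. Nothing is read from these counts beside the shares of all genes given with them. The median difference of the 9 genes was 0.79, against -0.036 for all genes, and without NPC replicate 3 it was -0.0041, against -0.037.

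NPC replicate 3 was the highest NPC array for 8 of the 9 genes, as for 37.9% of all genes. It lay above the mean of NPC replicates 1 and 2 by 3.96 for Areg, 2.80 for Egr1, 2.24 for Egr2, 1.75 for Ier2 and 1.49 for Atf3, and these 5 are the members past 1 on the log2 scale. Among all 17144 genes ordered by this difference, Areg ranked 11th, Egr1 29th, Egr2 59th, Ier2 108th and Atf3 161st. The other members stood lower in that order, with 0.74 for Junb (626th), 0.59 for Fos (972nd), 0.55 for Jun (1087th) and -0.11 for Fosb (11362nd). The gap between NPC replicates 1 and 2 was 0.097 to 0.46 at the 9 genes and widest at Fosb, whose values are low on the scale. The median of the difference of replicate 3 was 1.49 over the 9 genes and -0.0096 over all genes, and as the array was noted for these genes beforehand this is a description of it. The order was unlike the order of the differences between cell types. Jun had the largest difference between NPCs and ESCs, and a difference of 0.55 on replicate 3. Areg, with the largest difference on replicate 3, was not higher than in ESCs on the other NPC arrays.

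**Figure D3:**
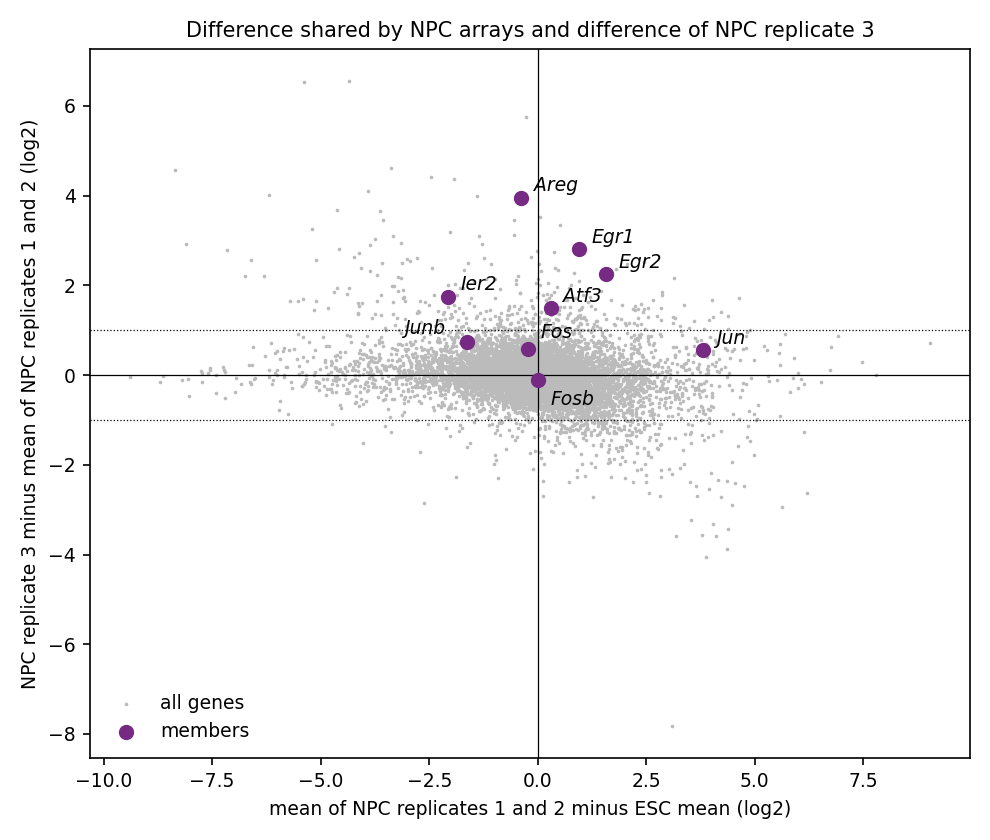
Difference shared by NPC replicates 1 and 2 (horizontal axis, their mean minus the ESC mean, log2) against the difference of NPC replicate 3 from them (vertical axis, log2). Grey points are all 17144 genes, purple points the 9 genes, and dotted lines mark 1 and -1. Areg, Egr1, Egr2, Ier2 and Atf3 lie above the upper dotted line, and Jun lies far right at 3.81 and 0.55.

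Genes of the same pathways were taken from lists of EGR family genes and corepressors, AP-1 and related bZIP genes, and other early genes. Further lists held upstream factors, the EGF receptor system and stress response factors. They made 81 genes in all, of which 21 could be named on the arrays. Names came from printed tables of the study, which for nearly all genes were at hand only for the largest rises in NPCs, so a gene that was lower or unchanged in NPCs is mostly unnamed here. That 20 of the 21 were called higher therefore follows from how they could be named (97.4% of the 2000 named genes beside the members were called higher), and only their values on single arrays add to the account. The adjusted p-values printed below for these genes carry the same limit, and are not separate evidence of a rise. None of the 11 listed AP-1 and related bZIP genes, among them Fosl1, Fosl2 and Jund, could be named.

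Of the 4 listed EGR family genes and corepressors 2 could be named, and Egr3 and Egr4 could not. The named ones, Nab1 and Nab2, are corepressors that bind EGR proteins, and both were higher in NPCs. Nab2, itself a target of EGR factors, read 6.57, 6.51 and 6.57 in ESCs and 9.04, 8.66 and 10.31 in NPCs (difference 2.79, limma standard error 0.39, adjusted p = 0.000755 from limma). Standard errors of related genes are those of limma, which draws on the variances of all genes. Those of the 9 genes come from their own SDs, so the 2 kinds are not compared. NPC replicate 3 lay 1.47 above the other NPC arrays, the same side as Egr1 and Egr2, and without it the difference was 2.30. Nab1 rose by 2.84 (limma standard error 0.092, adjusted p = 6.79e-07 from limma) with replicate 3 only 0.19 above the others, and the difference was 2.78 without it.

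Of the 30 other immediate early genes 9 could be named, and on NPC replicate 3 they did not move as one group. Dusp6, which encodes an ERK phosphatase and is induced by ERK signalling, read 8.67, 8.73 and 8.66 in ESCs and 10.41, 10.48 and 11.57 in NPCs (difference 2.13, adjusted p = 0.000738 from limma), with replicate 3 higher than the other NPC arrays by 1.13 and a difference of 1.76 without it. Rgs2, which encodes a regulator of G protein signalling, was lower on replicate 3 instead, at 5.92 against 7.20 and 7.27 in NPC replicates 1 and 2 and 3.75 to 3.95 in ESCs (difference 2.96, adjusted p = 0.000305 from limma), and its difference without replicate 3 was 3.39. Gadd45g, a stress-inducible gene, was also lower on replicate 3, by a difference of -0.77, at an overall rise of 1.80 (adjusted p = 0.000304 from limma) and a difference of 2.06 without that array. Myc, the growth regulator, rose by 3.93 and Plk2, a polo-like kinase, by 3.54 (adjusted p = 1.56e-07 and 7.04e-07 from limma), with replicate 3 within 0.13 of the other NPC arrays for both and differences of 3.92 and 3.49 without it. Phlda1, a gene induced by growth factors, rose by 2.92 (adjusted p = 7.31e-06 from limma), with a difference of -0.042 on replicate 3, and without it the cell types differed by 2.94. The median difference of replicate 3 over these 9 other early genes was -0.042.

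The upstream factors that could be named were 3 of 8, and each was called higher. Elk3 and Elk4, ETS factors that act with serum response factor, rose by 3.17 and 1.41 (adjusted p = 3.24e-06 and 0.00013 from limma), and Mkl2, a coactivator of serum response factor, by 0.88 (adjusted p = 0.000108 from limma). None of them was higher on NPC replicate 3 than on the other NPC arrays, from which it differed by -0.46, -0.43 and -0.033, and without it the differences between the cell types were 3.32, 1.55 and 0.89.

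In the EGF receptor system 2 of 13 genes could be named, and both were higher in NPCs. Egfr, the receptor of amphiregulin and EGF, read 4.19, 4.26 and 4.16 in ESCs and 8.21, 8.42 and 9.04 in NPCs (difference 4.35, limma standard error 0.20, adjusted p = 3.58e-06 from limma). The gap between cell types was thus present on each NPC array, unlike that of Areg. Adam10, a membrane protease that sheds ligands of this family, rose by 2.09 (adjusted p = 3.53e-05 from limma). Both were highest on NPC replicate 3, by 0.73 and 0.48 over the other NPC arrays, and without it the differences between the cell types were 4.11 and 1.93.

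Of the 15 stress response factors 5 could be named. For all 5 NPC replicate 3 was the highest NPC array, as for 37.9% of all genes. Chac1, a glutathione-degrading enzyme induced by ATF4, read 7.33, 7.17 and 7.38 in ESCs, 7.83 and 7.78 in NPC replicates 1 and 2 and 11.14 in NPC replicate 3. Its difference of 1.62 was not called (adjusted p = 0.161 from limma), and with replicate 3 left out it was 0.51 and not called either, being below 1.5-fold (adjusted p = 0.00146 from limma). Ddit3, which encodes the stress factor CHOP, read 7.25 to 7.30 in ESCs and 8.14, 8.12 and 9.86 in NPCs (difference 1.43, adjusted p = 0.0315 from limma). Without NPC replicate 3 its difference was 0.85, with an adjusted p of 2.36e-05 from limma. Atf5, a further ATF factor of the stress response, rose by 2.96 (adjusted p = 0.000463 from limma), with NPC replicate 3 at 9.93 against 8.71 and 8.57 and a difference of 2.53 without it. Nupr1, a stress-induced nuclear protein, rose by 1.55 and Herpud1, of the endoplasmic reticulum stress response, by 2.03 (adjusted p = 0.00177 and 9.54e-06 from limma), with replicate 3 higher by 0.95 and 0.30 and differences of 1.23 and 1.93 without it. So 3 of the 5 lay more than 1 above the other NPC arrays, where 129 of the 2000 named genes, 6.45%, and 2.20% of all genes did so. NPC replicate 3 also entered the NPC mean by which genes came to be named, and the share is no test of the list.

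**Figure D4:**
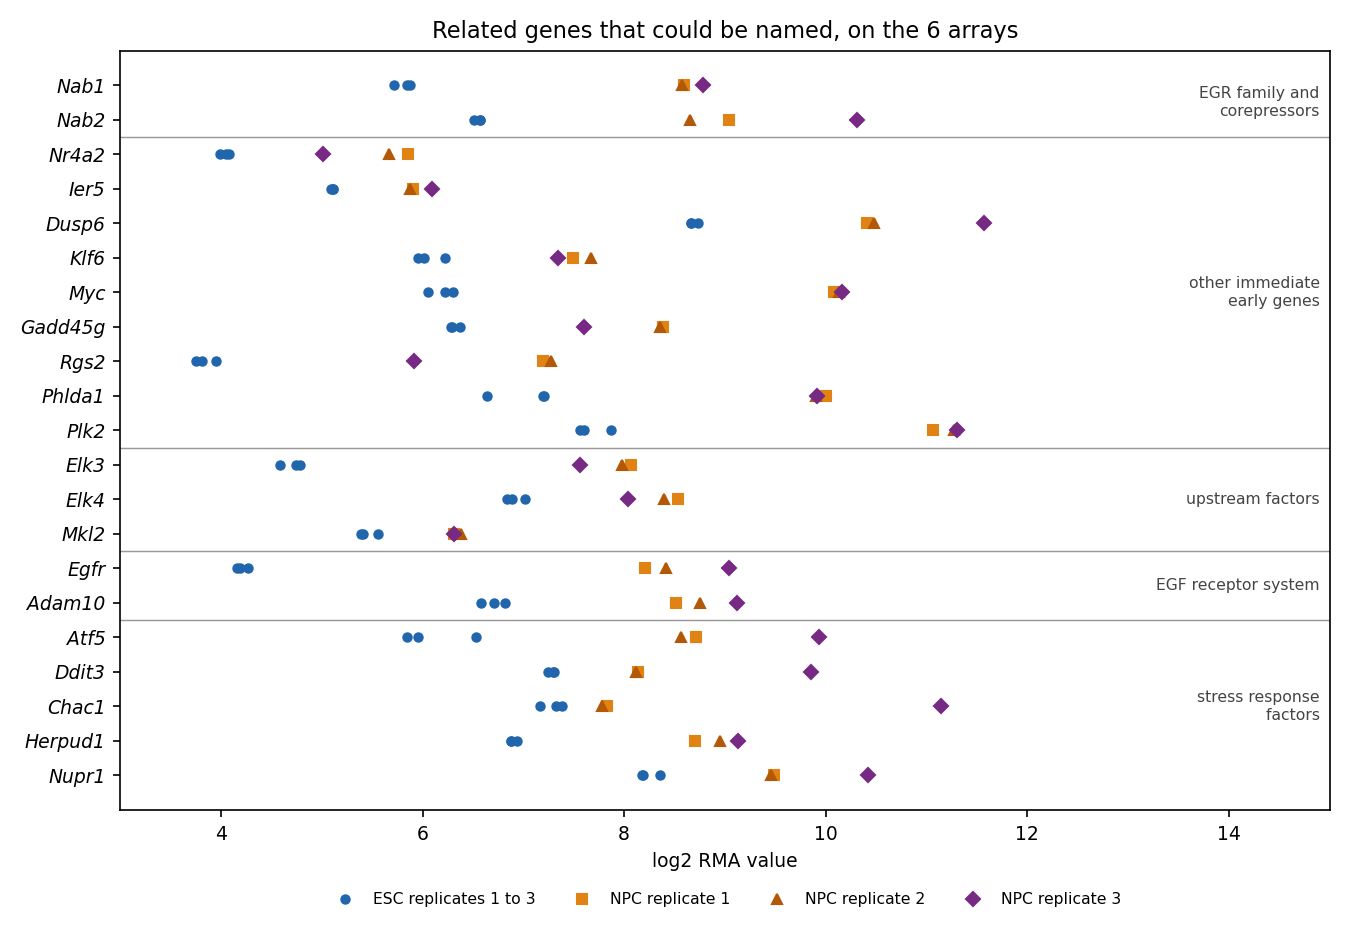
Log2 RMA value (horizontal axis) of the 21 related genes that could be named, on each array, grouped by list. Circles are ESC replicates, and squares, triangles and diamonds are NPC replicates 1, 2 and 3. Chac1, Ddit3, Nab2, Atf5 and Dusp6 have NPC replicate 3 more than 1 above the other NPC arrays, and Rgs2 has it more than 1 below.

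The named markers of neural cell types differed on NPC replicate 3 in both directions. Of 6 astrocyte markers 2 could be named. Slc1a3, a glutamate transporter, read 9.80 on NPC replicate 3 against 8.66 and 8.72 on NPC replicates 1 and 2, and S100b, a calcium-binding protein, 7.02 against 6.32 and 6.13. The neuron marker Dcx, the 1 of 6 that could be named, read 3.76 against 4.86 and 5.06, with ESC values of 3.33 to 3.68. Its values in ESCs and on replicate 3 are low on the scale, so they do not set whether the transcript was present. Of 6 oligodendrocyte lineage markers Olig1 and Olig2 could be named, and replicate 3 differed from the others by -0.22 and 0.65, while at the 3 named progenitor markers it differed by 0.72 for Fabp7, -0.069 for Nes and -0.18 for Vim. No marker of fibroblasts or microglia could be named, out of 6 and 4. In bulk RNA, fewer cells of a type and less RNA per cell cannot be told apart, and the part of these markers in the values of Egr1, Egr2, Areg, Ier2 and Atf3 was not tested.

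Among the 1967 genes whose values spanned at least 2 on the log2 scale over the 6 arrays, those most like each of the leading members were taken by Pearson r over the arrays, which share cell type and array, so r is a description. For Egr1 they were Chl1 (r = 0.998), Bex2 (0.997), Myo6 (0.994), Scg3 (0.992) and Ddit3 (0.991). Chl1, a neural adhesion molecule, read 3.98, 3.89 and 6.22 in NPCs against a mean of 3.10 in ESCs, a small step on replicates 1 and 2 and a large step on replicate 3, as for Egr1. The ESC values of Chl1, unlike those of Egr1, are low on the scale, so its steps may not reflect RNA. For Egr2 they were Ephx1 (0.997), Frmd3 (0.995), Megf10 (0.994), Slc7a11 (0.994) and 2810459M11Rik (0.994), of which Ephx1, an epoxide hydrolase, read 9.27, 9.24 and 11.59 in NPCs against 7.62 in ESCs. For Areg the 5 most like were Nap1l5 (0.996), Gria3 (0.989) and 3 genes without a name here, 2 of them ENSMUSG00000003411 (0.992) and ENSMUSG00000030559 (0.990). Nap1l5 read 3.03, 3.18 and 8.85 in NPCs against 3.37 in ESCs, and Gria3, an AMPA receptor subunit, 3.09, 3.29 and 6.71 against 3.13, so both were high on replicate 3 alone. Their other values lie at the low end of the scale, as those of Areg do. For Jun they were Usp40 (0.999), Ggh (0.999), Paqr4 (0.999), Serpine2 (0.999) and Abtb2 (0.999), all within 0.70 between replicate 3 and the other NPC arrays. Serpine2, a secreted protease inhibitor, differed between the cell types by 4.35, the nearest of the 5 to the 3.99 of Jun.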

How the data were processed

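RNA of 3 ESC and 3 NPC samples was hybridized to Affymetrix arrays, and the authors deposited log2 values made by RMA for each Ensembl gene, with probes regrouped by BrainCDF. Its version and build were not given in the sources used here. RMA normalizes the probes of all arrays to a common distribution and compresses low values. The array medians still ran from 5.75 to 5.76 in ESCs and from 5.59 to 5.61 in NPCs, a step between the cell types. Of 17208 rows, 64 control probe sets were left out. Differences were tested over all 17144 genes with limma 3.58.1 in R 4.3.3 (Benjamini-Hochberg adjustment), at the thresholds of the methods (adjusted p under 0.05, over 1.5-fold). The fit was tested on simulated data. Alternatives were the methods' Welch test with and without moderation, trended and robust variances, a replicate block, other scalings, filters and fold thresholds, and each array left out. Arrays hold no counts, and their number limits the precision.

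The members and lists were chosen with earlier results of these data known. Related genes were named by equal values, within 0.0001, to 2012 rows of the study's tables. Of the members 4 matched a row, and the other 5 carry the symbol given with their identifier in the definition of the group. The text names all 9 members, of each list the called genes with the largest differences (up to 6), each listed gene over 1 apart on NPC replicate 3, and the 5 genes most like Egr1, Egr2, Areg and Jun. The study's tables served only to match values to names, and their fold changes and p-values were not used. Motif windows came from RefSeq (GRCm38.p6), and proteins were not analysed here. Python 3.11.15, pandas 2.3.3 and matplotlib 3.10.9 were used.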

Additional observations from a re-analysis of the deposited data

How the results depend on the processing

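The number of genes called between NPCs and ESCs was 5851, and stayed within 1.5 times that under each alternative but a fold change over 2, with 3592 genes. Of the 21 related genes, 20 were called, and 13 with a Welch test without moderation. The difference of Areg, 0.94, ran from -0.38 (NPC replicate 3 left out) to 1.69 over the fits that omit 1 array. Over those fits it lay between 0.95 and 2.43 for Egr1, 1.58 and 2.77 for Egr2, 3.80 and 4.11 for Jun, -1.64 and -1.19 for Junb, -2.08 and -1.14 for Ier2, and 0.30 and 1.11 for Atf3. Each lowest value of Egr1, Egr2, Atf3 and Ier2 was without NPC replicate 3. Fos and Fosb lay between -0.22 and 0.095 and between -0.18 and 0.054. At a threshold of 1.5-fold in place of 2-fold, 979 genes in place of 378 were higher on NPC replicate 3. Of the 9 members it was 7 in place of 5. Quantile normalization and median centring moved its difference at the 9 genes by less than the spread between arrays. The replicate numbers occur in both cell types, and deviations of same-numbered arrays from their group means had r = 0.0264, 0.011 and -0.00645 across genes. NPC replicate 3 weighs on all the NPC deviations, so these values do not set whether same-numbered arrays were handled together. With the replicate block 5867 genes were called. Names missing for most genes that were lower in NPCs limit every statement on related genes.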
